A study of Mus musculus with 6 samples.

Results

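The microglia genes examined were Cx3cr1, P2ry12, Csf1r, Trem2, Tmem119, Aif1, C1qa, C1qb and C1qc. They were taken by gene symbol from the table of read counts of the embryo brains, and they are 9 of its 53801 genes. The table came from RNA-seq of polyadenylated RNA of whole brain of C57BL/6 mouse embryos at E16.5. The 3 Bahd1-KO embryos were Bahd1-/- and the 3 Bahd1-WT embryos were Bahd1+/+. The BAHD1 protein holds together complexes that repress chromatin, and its gene was inactivated in the whole animal, not in microglia alone. The comparison asks whether microglia genes differed between brains with and without BAHD1 before birth.

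Microglia are the resident macrophages of the brain parenchyma. They arise from yolk sac progenitors, enter the brain early in embryonic life, depend on signals through the receptor encoded by Csf1r, and remove dying cells and synapses during development. Homeostatic microglia are recognised by P2ry12, Tmem119 and Cx3cr1. Genes such as Csf1r, Aif1, Trem2 and the C1q genes are also expressed by other macrophages, including those at the borders of the brain. In RNA of a whole brain, fewer cells of a type and less RNA per cell cannot be told apart.

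The promoters of C1qb and C1qc are shown because these genes encode chains of a single protein and lie side by side. Those of Cx3cr1 and P2ry12 are shown beside them because these receptors had another order of levels over the embryos. Entries of 6 of the 9 genes were used from the RefSeq promoter table of GRCm38.p6. Each has 300 bases that run from 250 bases before to 50 bases after the start of transcription in that entry. Capitals mark the letters GAGGAA, the core of the box bound by the myeloid transcription factor PU.1, or TTCCTC where the core lies on the opposite strand. All 4 windows are printed 5′ to 3′ on the gene's own strand, which is the minus strand of chr4:136886151-136886450 for C1qb, chr4:136892865-136893164 for C1qc, chr9:120068247-120068546 for Cx3cr1 and chr3:59262936-59263235 for P2ry12.
C1qb: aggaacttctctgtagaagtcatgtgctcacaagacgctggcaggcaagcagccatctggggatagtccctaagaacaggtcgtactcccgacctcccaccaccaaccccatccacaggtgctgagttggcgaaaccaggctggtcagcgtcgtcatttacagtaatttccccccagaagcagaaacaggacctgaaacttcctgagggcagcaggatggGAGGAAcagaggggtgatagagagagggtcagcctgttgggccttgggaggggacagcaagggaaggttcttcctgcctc
C1qc: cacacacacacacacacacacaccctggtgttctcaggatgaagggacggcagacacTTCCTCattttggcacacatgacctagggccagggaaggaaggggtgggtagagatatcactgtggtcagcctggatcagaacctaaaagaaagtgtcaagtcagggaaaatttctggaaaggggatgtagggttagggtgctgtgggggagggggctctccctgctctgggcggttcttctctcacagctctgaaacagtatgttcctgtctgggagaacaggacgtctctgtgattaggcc
Cx3cr1: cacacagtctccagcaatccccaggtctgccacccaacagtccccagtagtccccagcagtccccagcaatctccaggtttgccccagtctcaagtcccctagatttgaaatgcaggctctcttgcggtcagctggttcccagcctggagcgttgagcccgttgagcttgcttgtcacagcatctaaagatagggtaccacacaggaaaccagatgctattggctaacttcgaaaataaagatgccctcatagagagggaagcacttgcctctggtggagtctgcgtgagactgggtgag
P2ry12: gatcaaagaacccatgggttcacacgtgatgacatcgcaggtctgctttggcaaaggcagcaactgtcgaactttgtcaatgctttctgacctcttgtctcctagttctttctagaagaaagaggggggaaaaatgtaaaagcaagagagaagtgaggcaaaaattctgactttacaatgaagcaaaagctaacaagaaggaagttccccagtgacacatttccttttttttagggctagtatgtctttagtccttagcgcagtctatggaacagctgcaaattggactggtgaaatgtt
The core was searched on both strands and was found once each in the windows of C1qb, C1qc, Aif1 and Trem2. In C1qb the match began 30 bases before the start of transcription, and in C1qc 193 bases before it. No match was present in the windows of Cx3cr1 and P2ry12. The window of P2ry12 lies wholly outside the span of the gene given below, and that of Cx3cr1 lies inside it. Other starts of transcription of these genes were not searched. The same letters occurred in 28.3% of all 32851 promoters of the table, and a match is a stretch of letters, not a measured binding site.

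Library depth ranged from 61724000 to 91782802 counts, and Bahd1 itself had 2, 10 and 6 counts across the Bahd1-KO embryos, where the Bahd1-WT embryos had 1971, 3102 and 3470 (log2 fold change -8.40 ± 0.61 SE, adjusted p = 0.0462 by the edgeR quasi-likelihood test). Bahd1-KO replicate 3 stood apart. Nuclear protein-coding genes held 49.4% of its counts and at least 92.3% of the counts of each other embryo, while Gm42418, which overlaps ribosomal RNA sequence, held 22.6% and the mitochondrial rRNA genes mt-Rnr1 and mt-Rnr2 together 22.1%. It also carried transcripts of lung, which are described after the microglia genes. The 9 genes, the gene lists and the genes named from them are therefore given with and without it. Levels below are CPM, counts relative to the depth of the library, scaled by TMM (trimmed mean of M-values), and RPKM are the same values per kilobase of exon.

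All 9 genes were detected in every embryo, with between 25 counts (Tmem119 in Bahd1-KO replicate 1) and 1858 counts (Csf1r in Bahd1-WT replicate 3). Per kilobase of exon, the order of the mean levels in the Bahd1-WT embryos was led by the C1q chains, with 8.62 ± 2.56 scaled RPKM for C1qb and 7.47 ± 2.02 for C1qa (SD, n = 3). C1qc followed at 3.25 ± 0.983, P2ry12 at 3.03 ± 0.531, Csf1r at 2.96 ± 0.652 and Cx3cr1 at 2.39 ± 0.216 scaled RPKM. Tmem119 (0.693 ± 0.269), Aif1 (0.673 ± 0.0649) and Trem2 (0.265 ± 0.0913 scaled RPKM) were lowest. The ranges of C1qb and C1qa overlapped, as did those of C1qc, P2ry12, Csf1r and Cx3cr1, and those of Tmem119 and Aif1. C1qa and C1qc, Cx3cr1 and Tmem119, and Aif1 and Trem2 were neighbours in this order whose ranges over the Bahd1-WT embryos did not overlap.

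**Figure D1:**
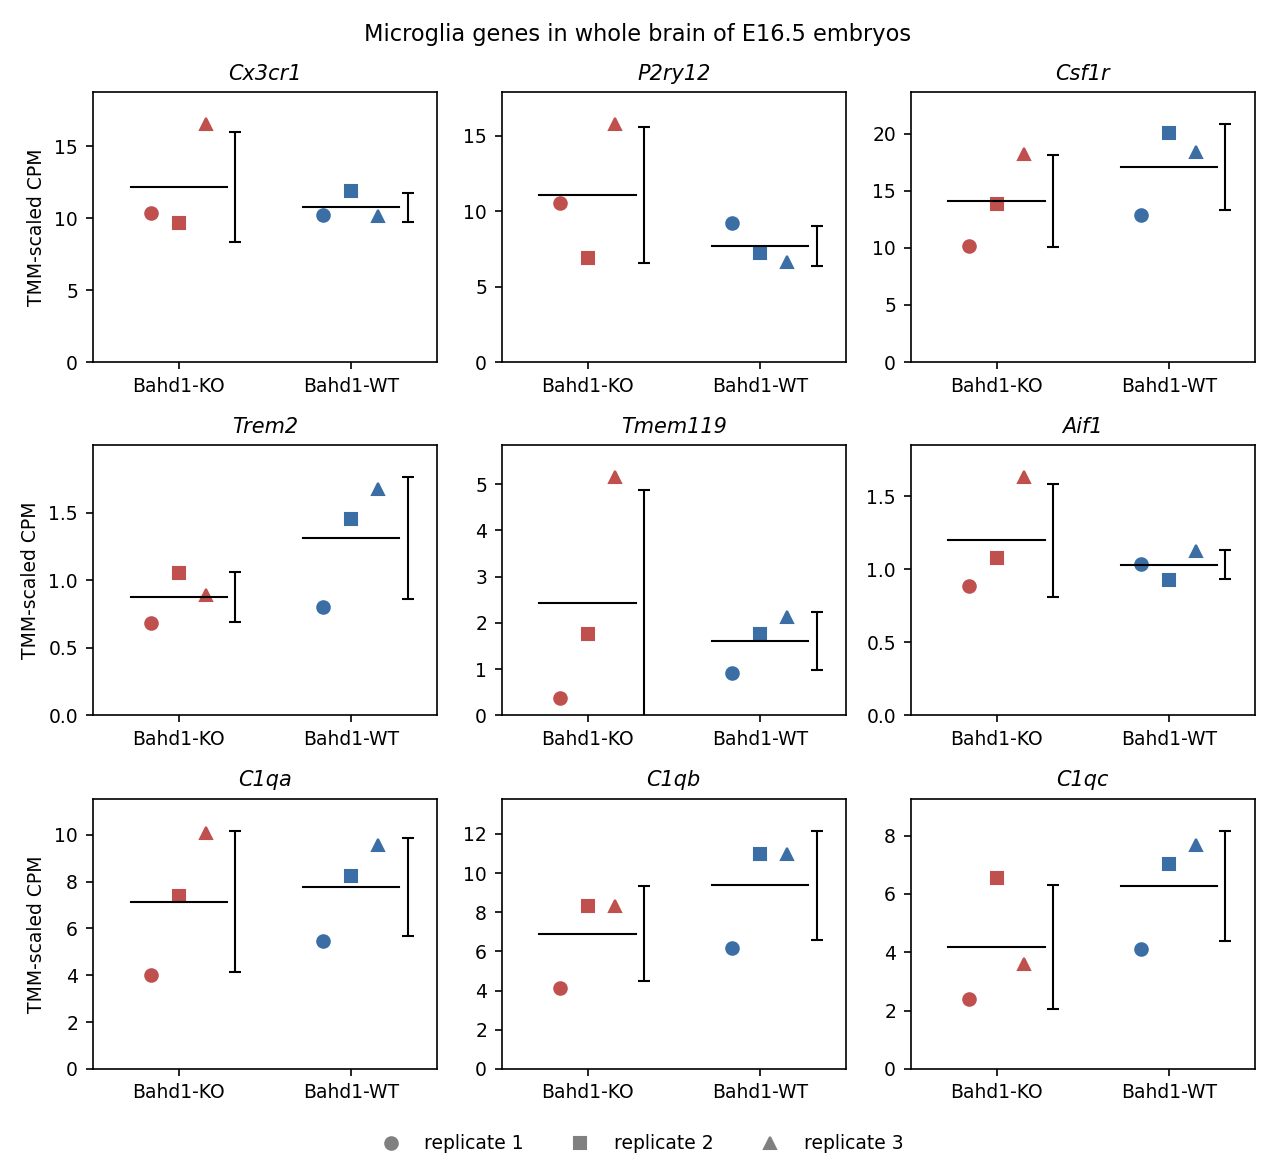
Level of each of the 9 microglia genes in each embryo, in TMM-scaled CPM on axes from 0, for Bahd1-KO (red) and Bahd1-WT (blue). Points are embryos, horizontal lines are means and error bars are SD over 3 embryos (that of Tmem119 in Bahd1-KO reaches below the axis). The ranges of the genotypes overlap for every gene, and Bahd1-KO replicate 3 (red triangle) is the highest of all embryos for 5 of them.

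Bahd1-KO replicate 3 was the highest embryo for 5 of the 9 genes, as it was for 38.1% of all genes tested. Bahd1-KO replicate 1 was the lowest for 7 of the 9, and the share of all genes lowest there was not taken. Among the receptors, Cx3cr1 encodes the receptor of the neuronal chemokine fractalkine and lies on the minus strand of chr9:119901616-120069879. By replicate number, its level was 10.4, 9.64 and 16.6 scaled CPM across the Bahd1-KO embryos, against 10.2, 11.9 and 10.1 scaled CPM across the Bahd1-WT embryos. All embryos but Bahd1-KO replicate 3 lay within a narrow band. The log2 fold change was 0.18 ± 0.32 (SE), with a 95% interval from -0.57 to 0.93 (edgeR adjusted p = 0.851), and -0.12 ± 0.23 without that embryo.

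P2ry12 encodes the purinergic receptor through which processes of microglia sense ATP and ADP, on the minus strand of chr3:59216272-59262871. In the order of their replicate numbers it stood at 10.5, 6.89 and 15.8 scaled CPM across the Bahd1-KO embryos, against 9.23, 7.22 and 6.66 across the Bahd1-WT embryos. Both embryos numbered 1 were above the embryos numbered 2 of their genotype, an order that the C1q genes did not share. The log2 fold change was 0.52 ± 0.38 (interval -0.37 to 1.42, edgeR adjusted p = 0.696), the highest among the receptors. Without Bahd1-KO replicate 3 it was 0.16 ± 0.29, and P2ry12 was then the only one of the 9 genes with a value above 0.

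Csf1r encodes the receptor of the growth factors CSF1 and IL-34 and lies on chr18:61100598-61132149. Its 3 Bahd1-KO levels were 10.1, 13.9 and 18.2 scaled CPM, and its Bahd1-WT levels 12.9, 20.1 and 18.4. The ranges overlapped, with the lowest level in Bahd1-KO replicate 1. The log2 fold change was -0.28 ± 0.33 (interval -1.06 to 0.50, edgeR adjusted p = 0.773) with all embryos and -0.52 ± 0.29 without Bahd1-KO replicate 3. Of its 5774 exonic bases, 873 are shared with Hmgxb3 on the opposite strand, which the stranded counting keeps apart.

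Trem2 encodes a lipid-sensing receptor that signals through the adaptor TYROBP, on the plus strand of chr17:48346401-48354147. Trem2 was the least abundant receptor, with 45, 89 and 48 counts in Bahd1-KO replicates 1 to 3 and 77, 128 and 169 in Bahd1-WT replicates 1 to 3, or 0.687, 1.05 and 0.890 against 0.804, 1.45 and 1.67 scaled CPM. Here Bahd1-KO replicate 3 was not high, and the value with all embryos (-0.58 ± 0.45, interval -1.64 to 0.49, edgeR adjusted p = 0.697) was close to the value without it (-0.59 ± 0.41).

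Tmem119, which encodes a membrane protein restricted to parenchymal microglia in the brain, had the largest SE of the 9 genes (chr5:113793729-113800516, minus strand). Counts were 25, 148 and 278 over the Bahd1-KO replicates and 88, 155 and 216 over the Bahd1-WT replicates. On the scaled CPM scale this was 0.382, 1.75 and 5.15 against 0.919, 1.76 and 2.14. The Bahd1-KO embryos thus included both the lowest and the highest level of the series, the latter 2.41 times the highest of the other 5 embryos. The log2 fold change was 0.59 ± 0.85 (interval -1.41 to 2.60, edgeR adjusted p = 0.815) and turned to -0.57 ± 0.63 without Bahd1-KO replicate 3.

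Aif1 encodes IBA1, the calcium-binding cytoskeletal protein used to stain microglia and macrophages (chr17:35170991-35176068, minus strand). Its levels were 0.885, 1.08 and 1.63 scaled CPM across the Bahd1-KO embryos, against 1.03, 0.930 and 1.13 across the Bahd1-WT embryos. Bahd1-KO replicate 3 was again the highest, and the other 5 embryos lay close together. The log2 fold change was 0.21 ± 0.42 (interval -0.77 to 1.20, edgeR adjusted p = 0.865), or -0.08 ± 0.29 without that embryo.

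C1qa, C1qb and C1qc encode the A, B and C chains of C1q, the recognition protein of the classical complement pathway, which marks synapses and dying cells for uptake. They lie next to one another on the minus strand of chromosome 4, with C1qb at chr4:136880129-136886187, C1qc at chr4:136889804-136893065 and C1qa at chr4:136895917-136898803. C1qa stood at 4.01, 7.37 and 10.1 scaled CPM across the Bahd1-KO embryos, against 5.47, 8.26 and 9.58 across the Bahd1-WT embryos. C1qb stood at 4.12, 8.31 and 8.30 against 6.16, 11.0 and 11.0 scaled CPM. C1qc stood at 2.40, 6.54 and 3.60 against 4.12, 7.01 and 7.69 scaled CPM. For each chain the embryo numbered 1 was the lowest of its genotype, and the ranges of the genotypes overlapped.

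The log2 fold changes of the chains were all below 0, at -0.12 ± 0.43 for C1qa, -0.44 ± 0.41 for C1qb and -0.59 ± 0.48 for C1qc, with edgeR adjusted p = 0.927, 0.725 and 0.701. Without Bahd1-KO replicate 3 they were -0.45 ± 0.37, -0.60 ± 0.40 and -0.49 ± 0.47. The ratio of C1qa to C1qb counts lay between 0.751 and 0.974 in the other 5 embryos and was 1.21 in Bahd1-KO replicate 3. The ratio of C1qc to C1qa counts lay between 0.597 and 0.887 in those 5 and was 0.357 in Bahd1-KO replicate 3.

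Across the 9 genes, 0 passed the adjusted threshold of 0.05 in edgeR, and 0 had an unadjusted p under 0.05. DESeq2 also called 0 of them. Among all 24739 genes tested, 0.00404% were called by edgeR (Bahd1 alone) and 0.0323% by DESeq2. The genotypes did not overlap for 0 of the 9 genes, against 6.71% of all genes tested. By sign, 4 genes were higher and 5 lower in Bahd1-KO. Their median log2 fold change was -0.12, beside 0.06 over all genes tested.

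Without Bahd1-KO replicate 3, 8 of the 9 genes were lower by sign and 1 was higher, with a median of -0.49 beside -0.01 over all genes. None was called in that fit (0 of 9, and 0 at an unadjusted p under 0.05), in which 0.0171% of 23334 genes were called. Of those genes, 50.8% were lower by sign. No range of the 2 remaining Bahd1-KO embryos fell clear of the Bahd1-WT range for any of the 9 genes, beside 4.35% of all genes clear below and 6.33% clear above. With all embryos, Cx3cr1 was the 1 gene whose 95% interval lay within a fold change of 2 in both directions, and the intervals of the other 8 reached beyond it.

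**Figure D2:**
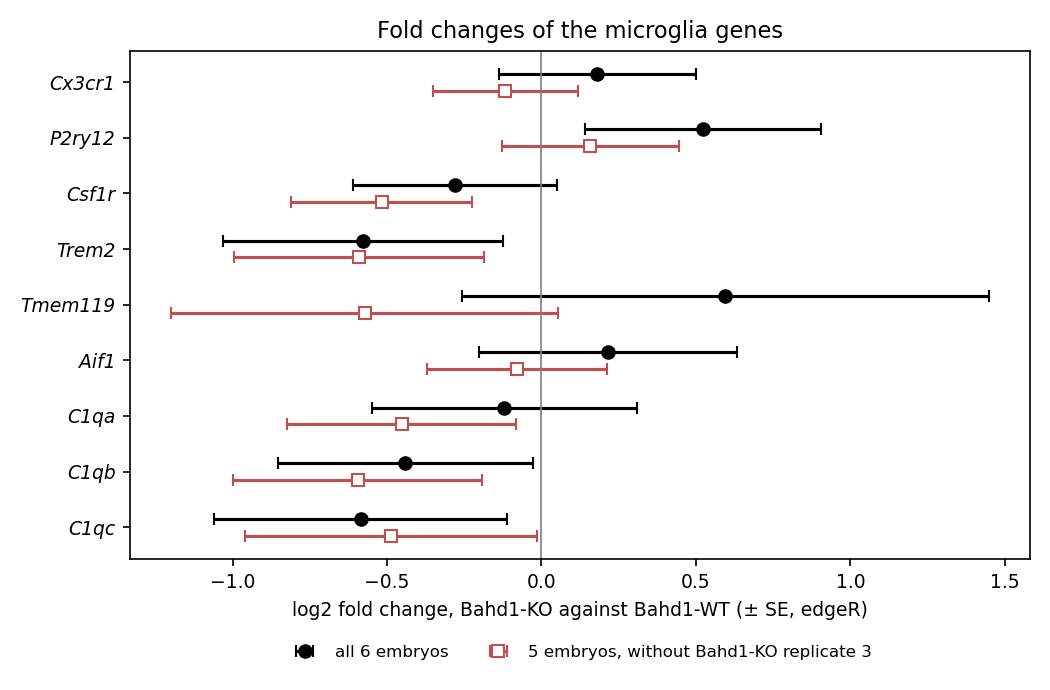
Log2 fold change of each microglia gene, Bahd1-KO against Bahd1-WT, from the edgeR model, with all 6 embryos (black) and without Bahd1-KO replicate 3 (red, open). Bars are SE. Tmem119 has the widest bar and moves from 0.59 to -0.57, and the values of Trem2 and C1qc move least.

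The make-up of the microglia gene counts was compared within each embryo, which sets aside the scaling between libraries. The 9 genes summed to between 2853 counts (Bahd1-KO replicate 1) and 6910 counts (Bahd1-WT replicate 3). The C1q chains held 24.2%, 39.3% and 27.4% of this sum across the Bahd1-KO embryos, against 31.0%, 37.8% and 41.3% across the Bahd1-WT embryos. The ranges overlapped, and the means differed by -6.40 percentage points with a pooled SD of 6.75. P2ry12 held 24.2%, 12.2% and 19.7% against 18.2%, 10.4% and 9.74%, again with overlap.

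Csf1r was the 1 gene of 9 whose share did not overlap between the genotypes, at 23.3%, 24.6% and 22.7% in Bahd1-KO replicates 1 to 3 and 25.3%, 28.8% and 26.9% in Bahd1-WT replicates 1 to 3. It is singled out after its values were seen. Set against the same sum, 0.732% of all 24739 genes tested were lower in the Bahd1-KO embryos with no overlap. The count of 1 in 9 takes either direction, whereas the share in the other direction is not given. Csf1r, unlike most of these genes, is itself part of the sum. The sum was at most 4773 counts in the Bahd1-KO embryos and at least 4867 in the Bahd1-WT embryos. The part of this in the share of 0.732% was not tested. The difference in the share of Csf1r was -3.49 percentage points, with SDs of 0.961 and 1.77. Tmem119 held 0.876%, 3.10% and 6.42% in the Bahd1-KO embryos, a wider range than its 1.81% to 3.13% in the Bahd1-WT embryos.

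**Figure D3:**
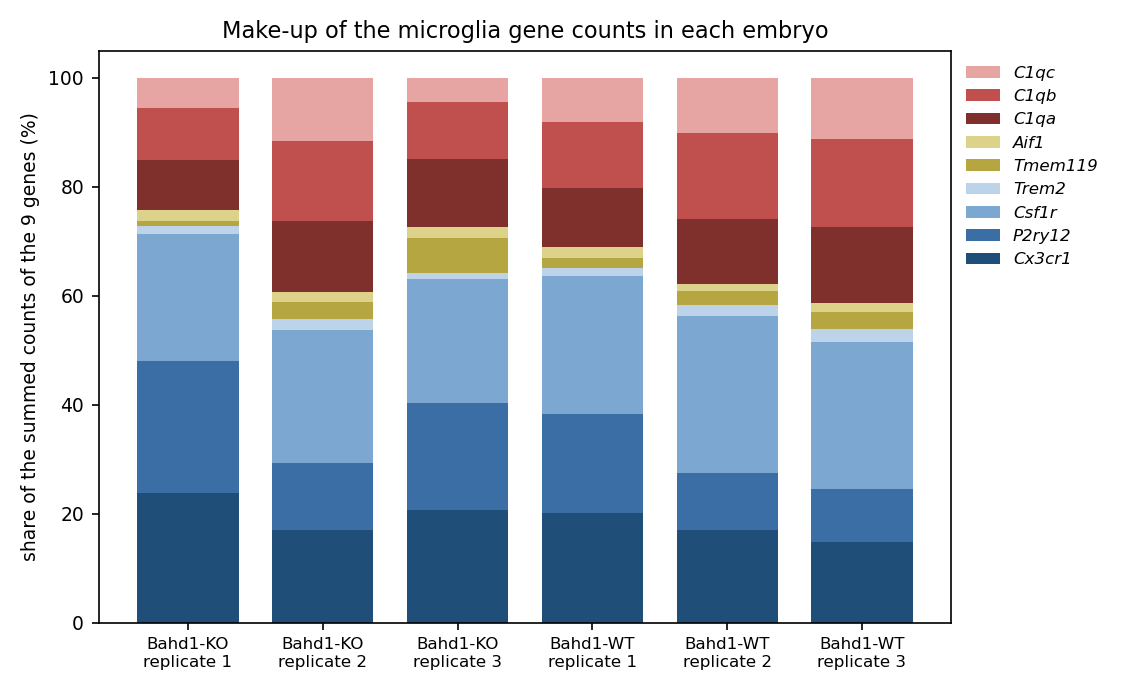
Share of each microglia gene in the summed counts of the 9 genes, in percent, stacked from 0 to 100 for each embryo. Receptors are blue, Tmem119 and Aif1 ochre, and C1q chains red. The C1q chains hold 24.2% in Bahd1-KO replicate 1 and 41.3% in Bahd1-WT replicate 3, and the share of P2ry12 is largest in Bahd1-KO replicate 1.

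The order of the embryos moved with the GC content of the transcripts. Within genotype, the embryo numbered 1 was the lowest for 7 of 9 genes among the Bahd1-KO and for 6 of 9 among the Bahd1-WT embryos. P2ry12, whose transcript has 38.6% GC, was not among them, whereas the C1q chains (57.4% to 59.5%) and Tmem119 (59.1%) were. The shares of all genes that were lowest in the embryos numbered 1 were not taken. Over the 9 genes, the deviation of an embryo from the mean of all 6 had a Pearson r with GC content of -0.81 in Bahd1-KO replicate 1, -0.74 in Bahd1-WT replicate 1, 0.79 in Bahd1-KO replicate 2, 0.68 in Bahd1-WT replicate 2 and 0.80 in Bahd1-WT replicate 3. In Bahd1-KO replicate 3 it was -0.06. These points are genes that share a library, and the r is a description.

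Coding genes at large sloped the same way in these 5 embryos. In the bin (5 bins by GC content) of coding genes with the lowest GC content the median deviation of Bahd1-KO replicate 1 was 0.31 on the log2 scale, and in the bin with the highest it was -0.62. In Bahd1-WT replicate 3 these medians were -0.23 and 0.56. In Bahd1-KO replicate 3 they were 0.09 and -0.70, a slope that the 9 genes did not follow. After each embryo was corrected for GC content, the SD of the deviations over the 9 genes went from 0.63 to 0.38 in Bahd1-KO replicate 1 and from 0.64 to 0.73 in Bahd1-KO replicate 3. The corrected mean deviation of the 9 genes was -0.37 and 0.86 in these embryos and between -0.19 and -0.02 in the other 4.

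With the GC correction, the median log2 fold change of the 9 genes was 0.27 with all embryos and -0.18 without Bahd1-KO replicate 3, and 0 genes were called in either fit. C1qa, C1qb and Csf1r then changed sign with all embryos, to 0.72, 0.18 and 0.14. Whether GC content accounts for the order of the embryos was not tested.

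**Figure D4:**
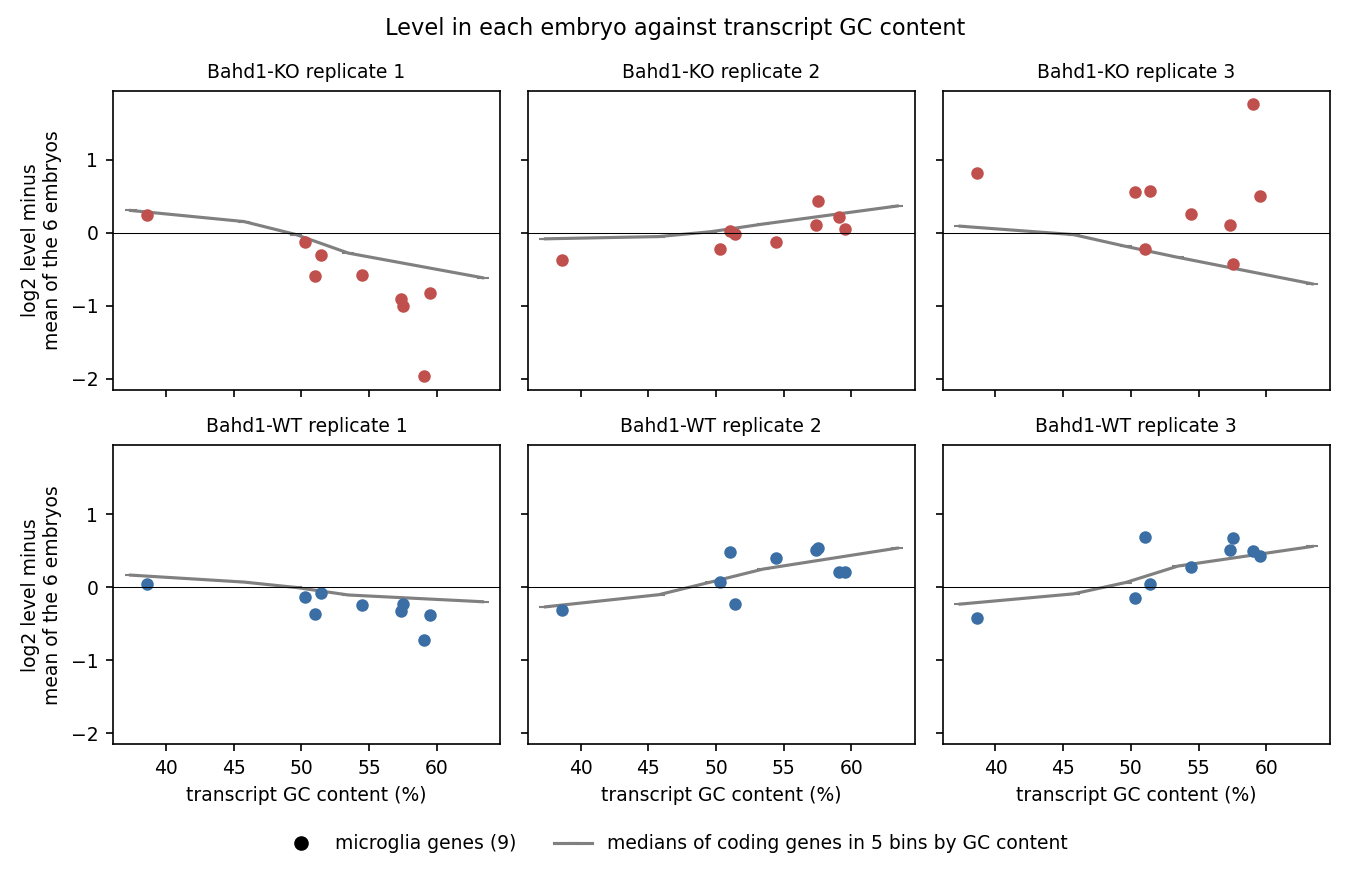
Log2 level of each microglia gene in an embryo minus its mean over the 6 embryos, against the GC content of its longest transcript in percent, in 1 panel per embryo (Bahd1-KO red, Bahd1-WT blue). Grey lines join the medians of all coding genes in 5 bins by GC content. Points fall with GC content in both embryos numbered 1 (r = -0.81 and -0.74) and rise in Bahd1-KO replicate 2 and Bahd1-WT replicates 2 and 3.

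Ligands of these receptors did not pass the test (0 of 4 called). Csf1 had a log2 fold change of 0.03 ± 0.28, Il34 of 0.10 ± 0.55, and Cx3cl1, which encodes fractalkine, of 0.02 ± 0.39. In the 5 embryos without Bahd1-KO replicate 3 these were -0.17, -0.41 and -0.32, and the median of the 4 ligands went from 0.02 to -0.37. Apoe, a lipid carrier bound by TREM2, ranged from 24.1 scaled CPM in Bahd1-KO replicate 1 to 104 in Bahd1-WT replicate 2 (-0.17 ± 0.52, and -0.53 in 5 embryos). As for the C1q genes, Bahd1-KO replicate 1 was the lowest embryo for Apoe, Il34 and Cx3cl1.

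Of 7 transcription factors of microglia, 0 were called, and 4 were highest in Bahd1-KO replicate 3. Spi1, which encodes PU.1, stood at 0.519, 0.959 and 1.32 scaled CPM in the Bahd1-KO and 0.574, 0.930 and 0.960 in the Bahd1-WT embryos. Irf8, its partner in the myeloid lineage, reached 6.51 scaled CPM in Bahd1-KO replicate 3 and at most 1.55 elsewhere. Runx1 likewise reached 20.0 scaled CPM there and at most 1.56 elsewhere. Sall1, which neural progenitors also express, was lowest in that embryo (8.47 against at least 30.7 scaled CPM). The log2 fold changes of Spi1, Irf8, Runx1 and Sall1 were 0.18, 1.12, 2.63 and -0.66 with all embryos and -0.15, -0.25, 0.21 and -0.25 in 5. The median of the 7 genes went from 0.18 to 0.04.

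Of 7 genes of TREM2 signalling and shedding, 0 were called. Tyrobp, the adaptor of TREM2, had a log2 fold change of -0.08 ± 0.45, and Hcst, a related adaptor, had at most 7 counts in any embryo. Plcg2 had 0.76 ± 0.56, and the sheddase genes Adam10 and Adam17 had 0.39 ± 0.27 and 0.64 ± 0.41. The values of Plcg2 and Adam17 rested on Bahd1-KO replicate 3, where Plcg2 stood at 5.93 scaled CPM against at most 2.23 elsewhere and Adam17 at 101 against at most 41.9. In 5 embryos Tyrobp had -0.35, Plcg2 -0.02, Adam10 0.22 and Adam17 0.03, and the median of the list went from 0.39 to -0.06. Trem2 counts were 0.421, 0.380 and 0.253 of the Tyrobp counts across the Bahd1-KO embryos, against 0.438, 0.510 and 0.451 across the Bahd1-WT embryos. The ratio was lower in every Bahd1-KO than in every Bahd1-WT embryo, and lowest in Bahd1-KO replicate 3. This ratio was singled out from several ratios between genes after its values were seen. Set against Tyrobp, 1.13% of all 24739 genes tested were lower in Bahd1-KO with no overlap. The share that was higher with no overlap is not given.

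Of 6 purinergic receptor and ectonucleotidase genes, 0 were called and 6 were highest in Bahd1-KO replicate 3. Entpd1, which encodes the enzyme CD39 that breaks down ATP, reached 48.8 scaled CPM there and at most 17.8 elsewhere (0.82 ± 0.49), while P2rx4 had 0.38 ± 0.42 and P2ry6 0.04 ± 0.50. In 5 embryos the 3 genes had 0.04, -0.15 and -0.27, and the median of the list went from 0.30 to -0.15. Of 11 complement genes beyond C1q, 0 were called and 10 were highest in that embryo. C4b had 430 counts there and at most 43 elsewhere (3.40 ± 1.68), Serping1 had 0.86 ± 0.68 and C2 -0.20 ± 0.46. Without Bahd1-KO replicate 3 the median of these 11 genes went from 1.07 to -0.18, with C4b at -0.64, Serping1 at -0.43 and C2 at -0.18.

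That microglia transcripts were present was checked with 11 other microglia markers, of which 11 passed the count minimum, 0 were called and 6 were higher by sign. They summed to 187 scaled CPM in Bahd1-KO replicate 3 and to 57.3 to 63.2 elsewhere. Of these, Olfml3 reached 103 scaled CPM in Bahd1-KO replicate 3 and at most 10.9 elsewhere (1.94 ± 0.97, and -0.28 in 5 embryos). Ltc4s, with 0 counts in Bahd1-KO replicate 1 and at most 24 in any embryo, had -2.51 ± 1.12 (-2.29 in 5 embryos). The median went from 0.22 to -0.47 without Bahd1-KO replicate 3, and that of the 9 genes from -0.12 to -0.49. Such a fall was not particular to microglia genes. The median of the endothelial genes, for example, went from 0.81 to -0.25, while those of neuron, progenitor and lymphoid genes rose.

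Markers that other macrophages and leukocytes share moved with Bahd1-KO replicate 3. Of 15 pan-myeloid and leukocyte genes, 12 were highest there, and their summed level was 237 scaled CPM against 71.9 to 94.6 in the other embryos. Lcp1 and Cybb had log2 fold changes of 1.46 ± 0.72 and 2.49 ± 0.97, and Coro1a, which is lowest there, of -0.81 ± 0.61. In 5 embryos these were 0.01, 0.46 and -0.43, and the median of the list went from 0.60 to -0.08. Of 11 genes of activated or phagocytic microglia, 8 were highest in that embryo, among them Igf1 (1.80 ± 0.73) and Lgals3 (1219 counts there and at most 70 elsewhere), but not Fabp5 (-0.59 ± 0.57) or Ccl3 (-1.34 ± 0.55). Without it Igf1 had 0.47, Lgals3 0.27, Fabp5 -0.15 and Ccl3 -1.05, and the median of the 11 genes went from 0.52 to -0.01.

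Genes of border-associated macrophages summed to 242 scaled CPM in Bahd1-KO replicate 3 and to 71.7 to 95.9 elsewhere, and 5 of 10 were highest there. Mrc1 was level between that embryo and Bahd1-KO replicate 1, at 36.2 and 36.1 scaled CPM (0.14 ± 0.28, and 0.00 in 5 embryos). Lyve1 (2.18 ± 0.95, and 0.06) and Cbr2 (5.61 ± 2.01, and 1.62), which other tissues also express, were highest there, and Folr2 had -0.51 ± 0.55 (-0.16). The median of the 10 genes was 0.12 with all embryos and 0.02 in 5. Of 13 genes of monocytes and granulocytes, 11 were highest in that embryo. Their sum was 86.2 scaled CPM against 5.55 to 9.55. Ccr2 had 944 counts there and at most 27 elsewhere, Lyz2 had 2492 and at most 410, and Prtn3 had 5 and at least 34. The median log2 fold change of the tested genes was 2.43 with that embryo and 0.58 without it, where Ccr2 had 0.55, Lyz2 0.18 and Prtn3 -0.16. Across these 4 myeloid lists, 0 genes were called.

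Lung and alveolar macrophage genes were absent or near 0 in most embryos and summed to 1479 scaled CPM in Bahd1-KO replicate 3, with 12.99 in Bahd1-KO replicate 2, 0.931 in Bahd1-KO replicate 1 and at most 2.46 in each Bahd1-WT embryo. The median log2 fold change was 7.47 with all embryos and 3.09 in 5. Sftpc, which encodes a surfactant protein, had 44670 counts there, 225 in Bahd1-KO replicate 2 and at most 11 in the others, and Scgb3a2 had 16285 and at most 16. Of 10 such genes, 9 were highest there. Marco, of alveolar macrophages, had 2 counts there and at most 20 elsewhere. The sum over 6 genes of mature astrocytes and oligodendrocytes was 1237 scaled CPM there and 51.8 to 165 elsewhere, with Mobp at 16319 counts there, 1573 in Bahd1-WT replicate 1 and at most 46 in the others. Mbp and Aqp4 had log2 fold changes of 1.76 ± 1.00 and 1.45 ± 0.87 (-0.49 and 0.08 in 5 embryos), and the median of the 6 genes went from 2.33 to -0.67.

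The sum over 9 neuron genes was 2604 scaled CPM in Bahd1-KO replicate 3 and 5902 to 7092 elsewhere. Tubb3 (-1.29 ± 1.06), Stmn2 (-0.66 ± 0.80) and Map2 (-0.29 ± 0.49) were lowest there and Snap25 (910 scaled CPM against at most 285) was highest. In 5 embryos these genes had -0.72, -0.14, 0.08 and 0.04, and the median of the neuron list went from -0.29 to -0.13. Among 7 progenitor genes, Eomes had 282 counts there and at least 5466 elsewhere, while Mki67 (0.91 ± 0.51) and Top2a (0.53 ± 0.38) were highest there. Without it they had 0.07, 0.11 and 0.09, and the median of the 7 genes went from -0.32 to 0.09. Endothelial genes summed to 532 against 127 to 169 scaled CPM, with Pecam1 at 1.46 ± 0.78, Cdh5 at 1.12 ± 0.73 and Cldn5 at -0.84 ± 0.55 (-0.17, -0.32 and -0.62 in 5 embryos, and a list median of 0.81 and then -0.25).

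Red blood cell genes summed to between 133 and 594 scaled CPM with no such contrast (429 in Bahd1-KO replicate 3). Hbb-bs, Hbb-bt and Hba-a1 had 0.13 ± 0.63, 0.29 ± 0.64 and -0.20 ± 0.77 (0.19, 0.12 and 0.01 in 5 embryos), and the list median went from 0.83 to 0.42. Of 7 lymphoid genes, 4 could be tested, with at most 101 counts (Cd4) in any embryo. Cd4 had 1.46 ± 0.85 and Cd79a -0.45 ± 0.75 (-0.10 and -0.07 in 5 embryos), and the list median was -0.29 and then -0.10. None of the 142 tested genes of these 17 lists was called by edgeR (0 genes, with 27 at an unadjusted p under 0.05), beside 4.67% of all genes at that unadjusted p. Among the 27, 9 were lung and alveolar macrophage genes and 7 were genes of monocytes and granulocytes. Without Bahd1-KO replicate 3 these lists held 5 and 2 such genes. In that fit 0 genes of the 17 lists were called as well. The part of these other transcripts in the levels of the 9 microglia genes in Bahd1-KO replicate 3 was not tested.

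**Figure D5:**
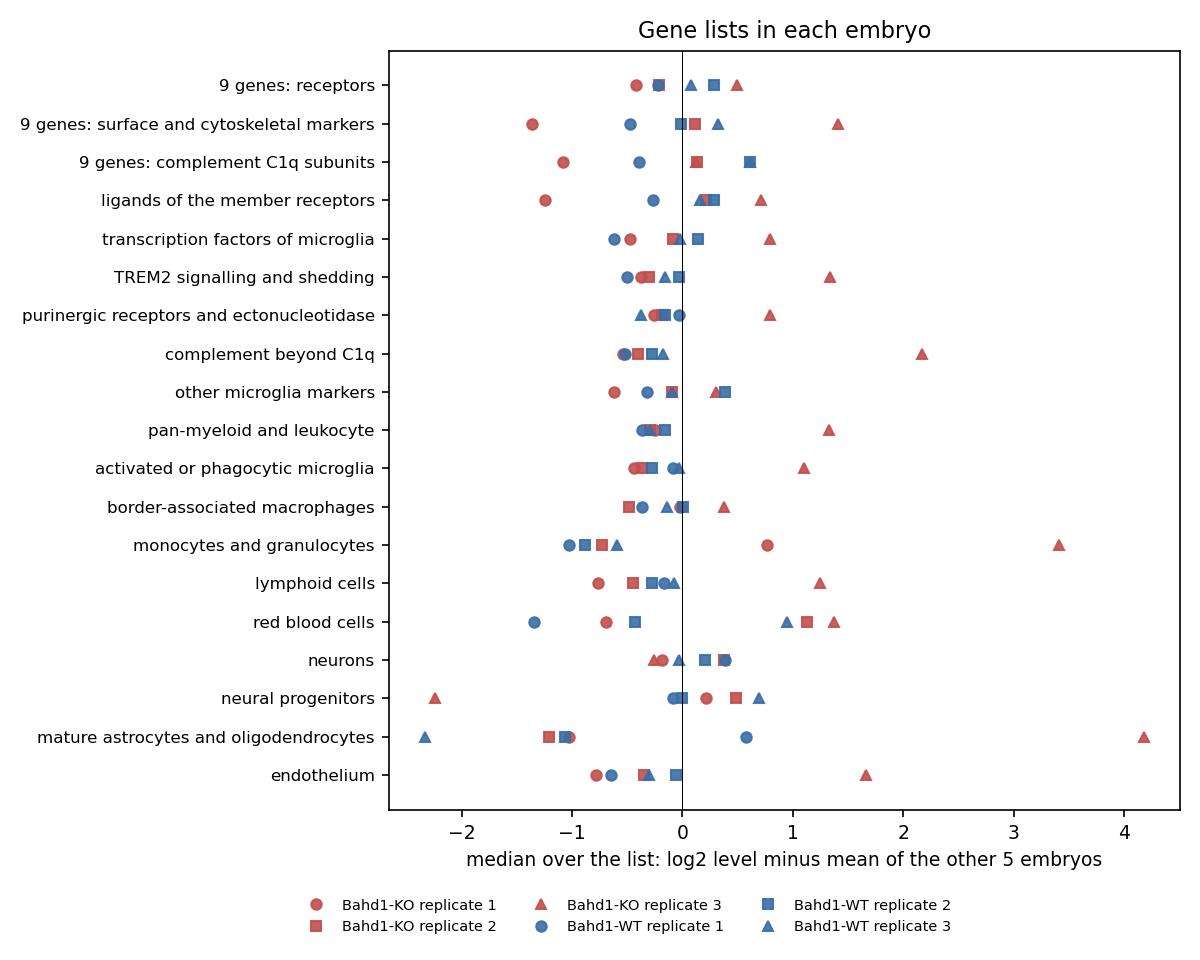
Median over each gene list of the log2 level in an embryo minus the mean of the other 5 embryos, for the 9 microglia genes in 3 groups and for 16 other lists (lung genes are left out because they lie far off the axis). Points are embryos, Bahd1-KO red and Bahd1-WT blue. Bahd1-KO replicate 3 lies to the right of the other embryos for the receptors and for Tmem119 and Aif1 among the 9 genes. It also does so for monocyte, complement, mature glia and endothelial genes, among other lists. It does not for the C1q chains or the other microglia markers.

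The genes whose pattern over the 6 embryos was most like the mean pattern of the 9 genes were Scly, Stat5b, Cerk, Cyb5r3 and Osr1, with a Pearson r of 0.999 to 0.993 among 13745 coding genes at a mean of at least 1 CPM. The mean pattern was -0.67 in Bahd1-KO replicate 1, 0.01 in replicate 2 and 0.44 in replicate 3, and -0.27, 0.21 and 0.28 in the Bahd1-WT replicates, on the log2 scale. Of the members, C1qa was most like it (r = 0.995) and P2ry12 least (r = 0.00). Over the 5 embryos without Bahd1-KO replicate 3, the most like genes were Cdr2l, Zfp423, Aspdh, Rps26 and Wdr24, with 0 shared between the lists. Coding genes with an r over 0.9 numbered 428 over 6 embryos and 3618 over 5. P2ry12 then had an r of -0.95 and C1qb of 0.997. All points share their libraries. Transcript GC content was 52.7% to 57.0% over the 5 genes from 6 embryos and 48.3% to 60.2% over the 5 later genes.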

How the data were processed

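Counts of polyadenylated RNA from 3 Bahd1-KO and 3 Bahd1-WT whole brains were analysed, grouped by the titles of the samples. The values the authors deposited are read counts of each gene as counted, with no normalization or filter. The authors made stranded libraries and assigned reads to exons by strand on GRCm38, and the submitters' processing notes name cutadapt 1.11, STAR 2.5.0a and featureCounts 1.4.6-p3. The study's methods also name TopHat2, and which aligner made these counts is not given in the sources used here. Strand-specific counting keeps overlapping antisense genes apart. GENCODE M21 gave positions, exon lengths and GC content of the longest transcript for 99.8% of genes.

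Genes with a summed count of at least 10 were tested with the edgeR quasi-likelihood test (edgeR 4.0.16, R 4.3.3) with TMM factors and genotype as the only term, two-sided, with Benjamini-Hochberg adjustment over all genes and a threshold of 0.05. Intervals are at 95%. DESeq2 1.42.0, voom with quality weights (limma 3.58.1), other factors and filters, the replicate number as a block and each embryo left out in turn were alternatives. A GC correction by lowess (span 0.3), fits that combine it or DESeq2 with the loss of Bahd1-KO replicate 3, and a fit without both embryos numbered 1 were added after the data had been seen. Log2 levels carried a prior count of 0.5. The scripts were tested on simulated data. No pair of libraries was identical. The labels do not say that embryos of 1 genotype came from separate litters, so p-values measure the spread between these embryos.

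The 9 genes and the other lists were chosen with earlier results of these data known. The text names the 9 genes and Bahd1, from each other list the 2 most abundant genes and those with the highest and lowest log2 fold change, Csf1, Il34, Cx3cl1, Tyrobp, Spi1 and Irf8, the 5 genes of most similar pattern, and Gm42418, mt-Rnr1 and mt-Rnr2. Some genes that this rule names are not reported here. Promoter sequences came from RefSeq. No promoter entry was used for Csf1r, Tmem119 and C1qa, and whether RefSeq holds entries for them is not reported here. The search for the PU.1 core did not cover these genes.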

Additional observations from a re-analysis of the deposited data

How the results depend on the processing

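No microglia gene was called in any of the 21 alternative fits or at an adjusted threshold of 0.1 (0 of 9), where their adjusted p ranged from 0.261 to 1.00. Of 189 values of single genes under these fits, 163 kept their sign. At an unadjusted p under 0.05 stood 3 genes under voom with quality weights, where the median moved to -0.65, and 2 under the block when Bahd1-KO replicate 3 was dropped. The shares of all genes at that p in these fits are not given, so the counts have no background beside them. The median ranged from -0.49 to 0.17 when each embryo was left out in turn, with the lowest value without Bahd1-KO replicate 3 and the highest without Bahd1-KO replicate 1. Scaling by total counts gave -0.39 and upper-quartile factors 0.0070, beside medians over all genes of -0.11 and 0.17. Without both embryos numbered 1 it was -0.03.

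Same-numbered embryos did not deviate together in every pair (correlations 0.20, 0.30 and -0.11), so the numbers are not treated as a pairing. With the replicate block the median was -0.18, and -0.37 without Bahd1-KO replicate 3. The block changed no call.

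Signs that turned were C1qa under upper-quartile factors (0.0070), Cx3cr1 and Aif1 under total counts (-0.075 and -0.038), and Cx3cr1, Tmem119 and Aif1 under voom (-0.11, -1.10 and -0.011). The same 3 genes turned without Bahd1-KO replicate 3 (-0.12, -0.57 and -0.079), also with the block (-0.16, -0.56 and -0.019) and in DESeq2 (-0.12, -0.59 and -0.083). C1qa turned without Bahd1-KO replicate 1 (0.17) or Bahd1-WT replicate 3 (0.045). Leaving out embryos in turn, Cx3cr1 ranged from -0.12 to 0.29, Tmem119 from -0.57 to 1.10, Aif1 from -0.079 to 0.39 and C1qa from -0.45 to 0.17. Under the GC correction Csf1r (0.14), C1qa (0.72) and C1qb (0.18) turned, with the block as well (0.069, 0.51 and 0.098), and without Bahd1-KO replicate 3 Cx3cr1 (-0.040), P2ry12 (-0.11) and Tmem119 (-0.29). The cause was not tested beyond what each fit leaves out. The difference in C1q share ranged from -10.9 to -3.34 percentage points, and 0 of the 5 most similar genes were shared without Bahd1-KO replicate 3. Tmem119, Aif1 and Trem2 had counts of 25 to 278 and SEs of 0.85, 0.42 and 0.45. C1qc, with 157 to 777 counts, had an SE of 0.48. The part of low counts in these SEs was not tested.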
